A study of Mus musculus with 2 samples.

Results

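The 38 genes described here encode much of the machinery that a cell uses in G2 and mitosis. They were taken by symbol from a list of G2 and M phase genes, and all 38 were among the 31053 genes of the deposited matrices. They were read in marrow from C57BL/6J mice, all aged, which received gut microbiota of young mice (FMT_young) or of aged mice (FMT_aged) by fecal transplantation. Each group is 1 library, and the labels give neither the number of animals behind it nor the time after transfer. The sequenced suspension was a sorted mixture of 1 part whole marrow, 1 part lineage-negative cells and 4 parts lineage-negative cells expressing cKit, so dividing progenitors were enriched in both groups and the shares of cell types are set by the sort. Transcripts were counted as unique molecular identifiers (UMIs) with the 10x Genomics Chromium 3' kit, which tags transcript ends, so that 1 UMI stands for 1 captured molecule whatever the length of the gene.

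Entry into mitosis depends on the kinase Cdk1 bound to a B-type cyclin, and exit depends on the anaphase promoting complex, which marks cyclins for destruction. Between these events condensin and topoisomerase compact the chromosomes, kinesins and microtubule proteins build the spindle, and the checkpoint kinases hold anaphase back until every kinetochore is attached. The genes for these proteins are transcribed late in the cycle, when the MuvB core complex with B-Myb and FoxM1 replaces the repressive DREAM complex at a promoter element called CHR, often next to CCAAT boxes that bind NF-Y. Bone marrow holds both ends of this programme, since committed progenitors divide fast, long-term stem cells rarely divide, and neutrophils and plasma cells leave the cycle as they mature.

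By role the genes fall into 9 groups. Cdk1, cyclin B2 (Ccnb2), the Cdk subunits Cks1b and Cks2, the activating phosphatase Cdc25c and Cdca3, which triggers mitotic entry through loss of Wee1, form the Cdk1 module, and Cdc20 and Ube2c belong to the anaphase promoting complex that ends its activity. Bub1 and Ttk are kinases of the spindle checkpoint, and Birc5 (survivin), Aurkb (Aurora B) and Cdca8 (borealin) form the chromosomal passenger complex that corrects wrong attachments. Ndc80, Nuf2, Cenpf and Hjurp serve kinetochores and centromeres, and Kif11, Kif20b and Kif2c are mitotic kinesins. Tpx2, Nusap1, Tacc3, Dlgap5, Ckap2, Ckap2l, Gtse1 and the beta tubulin Tubb4b build and stabilise spindle microtubules. Top2a, Smc4, Ncapd2, Mki67, Hmgb2, Anp32e, Cdca2, Tmpo and Rangap1 act on chromosome structure and the nuclear envelope, and Ect2 starts cytokinesis.

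Promoters of these genes are shown first because a shared promoter element is what the programme is known for. RefSeq promoters (GRCm38.p6, 250 bases before the start of transcription to 50 after it) were matched for 32 of the 38 genes, and none was printed or searched for Smc4, Tpx2, Aurkb, Cdc25c, Dlgap5 and Cdca2. The CHR letters TTTGAA, searched on both strands, were in the promoters of 25 of the 32 genes (78.1%), against 5466 of 27025 genes with a promoter (20.2%). The CCAAT letters, likewise on both strands, were in 24 of the 32 (75.0%), against 41.1% of all genes, and 20 of the 32 (62.5%) held both, against 7.97%. The windows below run from 120 bases before the start to 20 bases from it, 5′ to 3′ along the gene, with the CHR and CCAAT letters of either strand in capitals. Ccnb2 (chr9:70421535-70421674 on the minus strand), Cdk1 (chr10:69352893-69353032 on the minus strand), Cdc20 (chr4:118437324-118437463 on the minus strand), Ube2c (chr2:164769809-164769948 on the plus strand), Top2a (chr11:99024170-99024309 on the minus strand) and Hmgb2 (chr8:57511723-57511862 on the plus strand) are shown because the results below turn on them.
Ccnb2: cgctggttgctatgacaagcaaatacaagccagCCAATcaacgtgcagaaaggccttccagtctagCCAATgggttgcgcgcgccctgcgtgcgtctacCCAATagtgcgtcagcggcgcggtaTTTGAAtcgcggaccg
Cdk1: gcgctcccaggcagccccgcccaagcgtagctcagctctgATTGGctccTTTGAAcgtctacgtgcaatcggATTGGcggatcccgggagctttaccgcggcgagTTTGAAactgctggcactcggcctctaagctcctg
Cdc20: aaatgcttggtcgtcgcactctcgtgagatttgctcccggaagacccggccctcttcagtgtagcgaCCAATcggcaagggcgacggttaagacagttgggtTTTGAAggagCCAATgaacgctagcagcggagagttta
Ube2c: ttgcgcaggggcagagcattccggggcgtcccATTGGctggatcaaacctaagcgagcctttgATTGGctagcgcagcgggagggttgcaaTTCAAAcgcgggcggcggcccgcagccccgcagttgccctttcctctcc
Top2a: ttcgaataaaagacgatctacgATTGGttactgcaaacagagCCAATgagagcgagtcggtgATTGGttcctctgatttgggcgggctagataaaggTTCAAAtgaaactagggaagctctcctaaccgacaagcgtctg
Hmgb2: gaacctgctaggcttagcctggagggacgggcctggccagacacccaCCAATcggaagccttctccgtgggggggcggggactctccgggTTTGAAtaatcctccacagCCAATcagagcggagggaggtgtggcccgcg
Cks2 (chr13:51645112-51645251 on the plus strand) held CCAAT boxes without the CHR letters, and Birc5 (chr11:117849117-117849256 on the plus strand) held neither.
Cks2: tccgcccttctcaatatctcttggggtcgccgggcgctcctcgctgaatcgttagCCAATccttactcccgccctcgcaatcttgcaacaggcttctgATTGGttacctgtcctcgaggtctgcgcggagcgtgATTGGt
Birc5: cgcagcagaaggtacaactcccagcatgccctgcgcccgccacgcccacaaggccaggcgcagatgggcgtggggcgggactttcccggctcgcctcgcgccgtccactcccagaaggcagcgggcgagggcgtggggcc
Neither set of letters was found for Nuf2, Nusap1 and Tacc3 either, CCAAT alone was found for Bub1 and Gtse1 as well as Cks2, and CHR alone for Ndc80, Kif20b, Kif2c and Rangap1. A match describes the letters in a window and does not show that a factor binds there.

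After cell calling and doublet removal, 10793 FMT_young and 10320 FMT_aged cells were kept, with medians of 11031 and 11597.5 UMIs per cell, and 33 barcodes were present in both libraries. The 38 genes gave 684575 UMIs in FMT_young and 725289 in FMT_aged, or 4682 and 4830 CPM, that is, counts scaled to a common total of UMIs outside immunoglobulin genes. Barcodes with fewer than 100 UMIs, which hold free RNA, had 4142 and 4485 CPM of the same genes, so a low level in a cell type is not proof of its own transcription. Cells were grouped into 30 clusters without using cell cycle or histone genes, and 19 classes with at least 50 cells in each library were compared, of which 14 carried a cell type name from marker genes. Each group being 1 library, no difference has a replicate check or a test, and the intervals given, at 95%, cover counting error alone. Counts of the 38 genes by direction or by interval were taken without a limit on UMIs, and no share over all genes is given for them. Differences between the groups are log2 ratios of FMT_young over FMT_aged. A gene counted as higher or lower past 0.32, the log2 value of the smallest fold used, only where both sides of a comparison together held at least 100 UMIs of it.

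Summed levels of the 38 genes separated the marrow classes by nearly a factor of 10, in the same broad order in both libraries. Neutrophil progenitor-like cells, which carry granule transcripts together with Kit, were highest, with 9673 CPM (9566 to 9780) in FMT_young and 10379 CPM (10261 to 10498) in FMT_aged. Monocyte-like cells followed in FMT_aged with 6884 CPM, against 6587 CPM in FMT_young, where conventional dendritic-like cells stood above them at 7001 CPM. GMP-like cells, the granulocyte and monocyte progenitors, had 4664 CPM in FMT_young and 4677 CPM in FMT_aged. The stem and multipotent progenitor-like class had 3767 CPM (3721 to 3813) in FMT_young and 4077 CPM (4038 to 4116) in FMT_aged. Plasma-like cells, NK or innate lymphoid-like cells and the unnamed cluster 22 were at the low end in both libraries. Plasma-like cells had 1002 CPM in FMT_young and 1174 CPM in FMT_aged. NK or innate lymphoid-like cells had 1302 and 1141 CPM, and cluster 22 had 1077 and 1059 CPM. Mature B-like cells were also low in FMT_young, with 1186 CPM, but had 3810 CPM in FMT_aged.

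**Figure D1:**
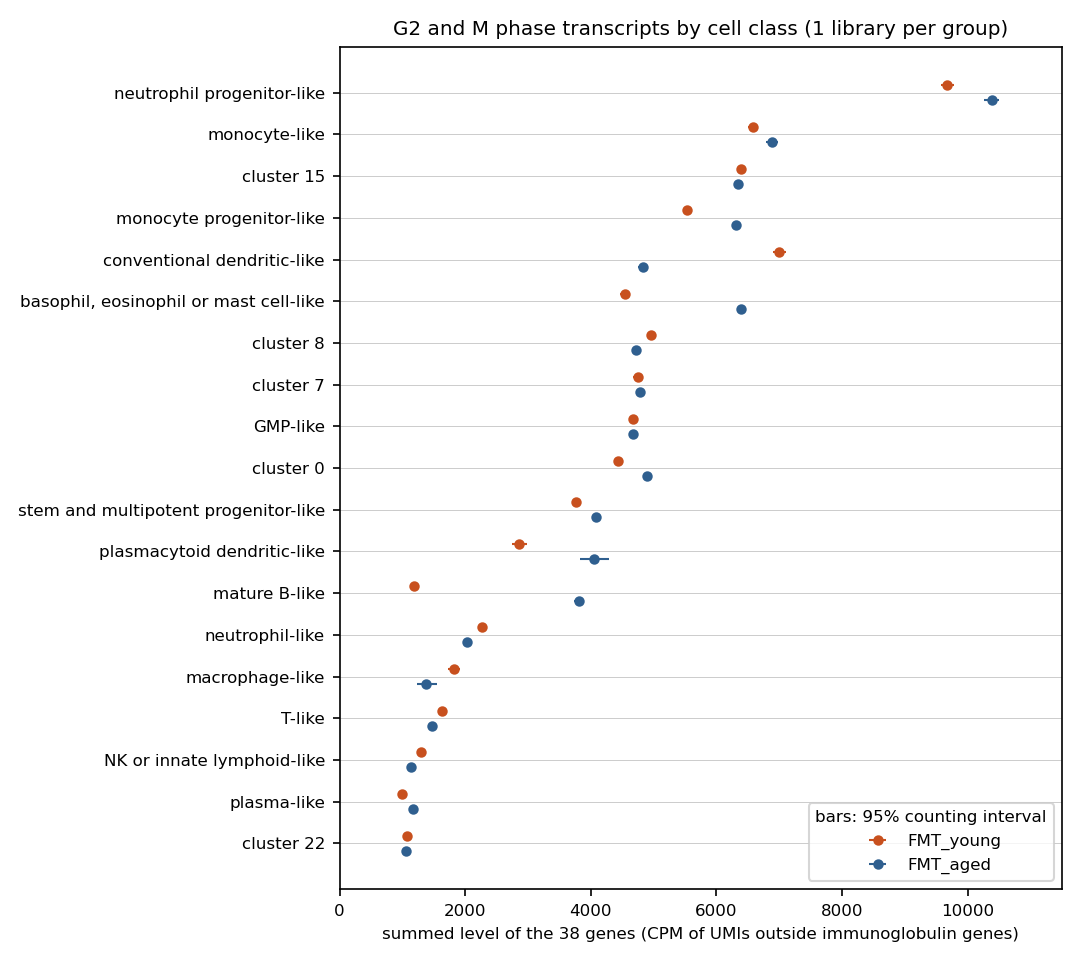
Summed level of the 38 genes (x axis, CPM of UMIs outside immunoglobulin genes) in each of 19 classes (y axis), with FMT_young in orange above FMT_aged in blue and bars for the 95% counting interval. Neutrophil progenitor-like cells stand highest in both libraries, at 9673 and 10379 CPM, while conventional dendritic-like, basophil, eosinophil or mast cell-like and mature B-like cells show the widest gaps between the libraries.

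A mean level can come from many cells with a little or a few with much, so each cell was thinned to 2000 UMIs and its UMIs of the 38 genes were counted. In neutrophil progenitor-like cells 156 of 245 FMT_young cells (63.7%, 57.3 to 69.7) and 165 of 246 FMT_aged cells (67.1%, 60.8 to 72.9) held 10 or more, and without thinning the shares were 92.7% and 90.7%. In the stem and multipotent progenitor-like class 97 of 638 FMT_young cells (15.2%, 12.5 to 18.2) and 170 of 954 FMT_aged cells (17.8%, 15.4 to 20.4) did, with 55.6% and 59.98% before thinning. This minority carried much more per cell, a mean of 18.4 UMIs in either library, while the remaining stem and multipotent progenitor-like cells averaged 2.79 UMIs in FMT_young and 3.01 in FMT_aged. Plasma-like cells were a low class, with 1 of 1105 FMT_young cells and 10 of 667 FMT_aged cells, at median depths of 5448 and 5244 UMIs outside immunoglobulin genes. The 10 FMT_aged cells all lay in cluster 13 and averaged 18.8 UMIs. Over all classes 335 and 341 cells held exactly 9 UMIs and 357 and 307 held 10, so the line between them cuts a continuous distribution.

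**Figure D2:**
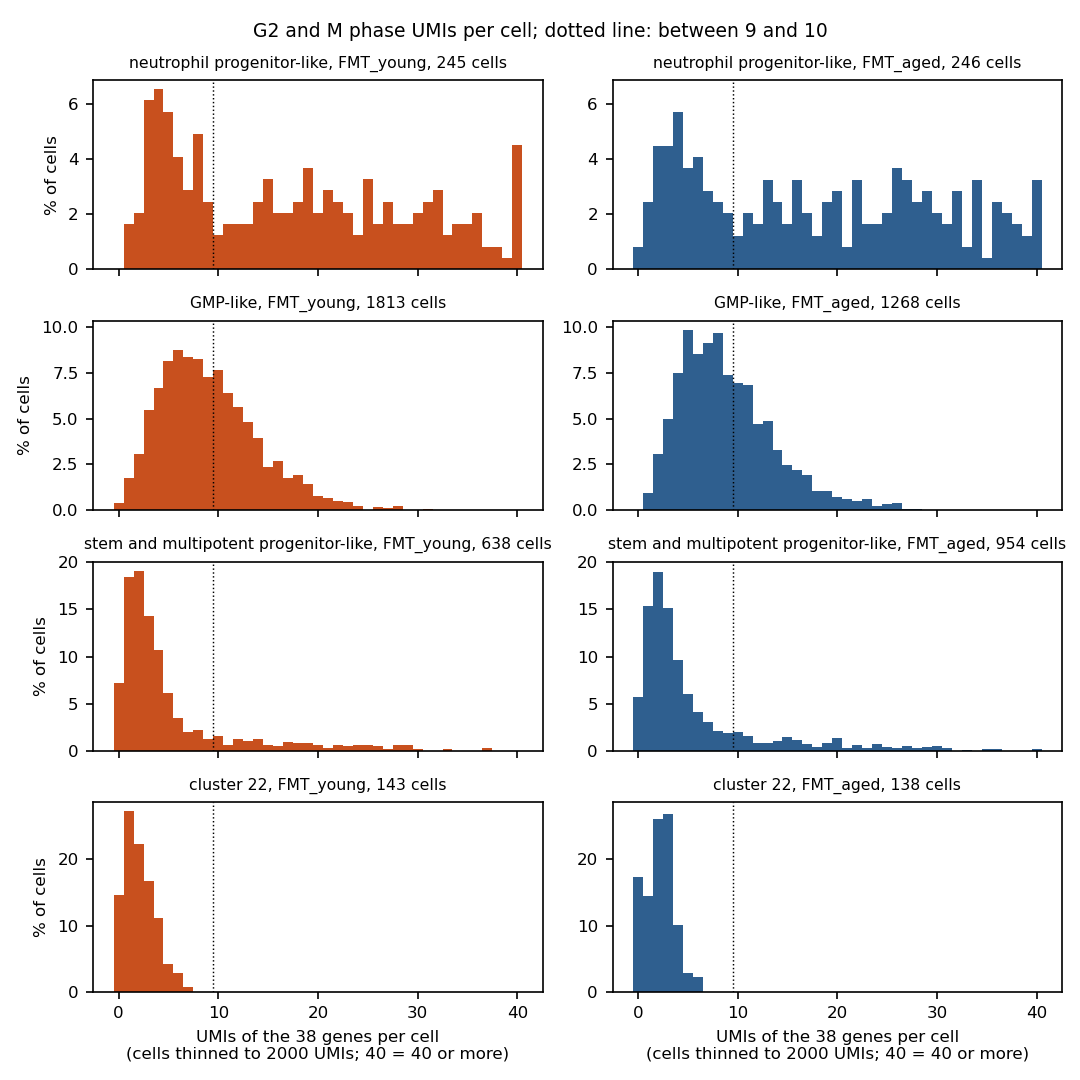
UMIs of the 38 genes per cell after thinning to 2000 UMIs (x axis, 40 stands for 40 or more) against the percentage of cells (y axis), with FMT_young on the left and FMT_aged on the right. Neutrophil progenitor-like cells spread beyond 10 UMIs in both libraries, GMP-like cells form 1 broad hump, stem and multipotent progenitor-like cells form a low hump with a tail, and no cell of cluster 22 reaches 10.

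Cluster 22 set the low end among primitive cells. It had 15 of the 17 stem and multipotent progenitor markers, summing to 5676 CPM in FMT_young and 5440 CPM in FMT_aged. It was left unnamed because its leading genes (Trim47, Mmrn1, Clec1a, Sult1a1 and Pdzk1ip1 among them) held no marker of that list but did hold one of another type. None of its 143 FMT_young and 138 FMT_aged cells reached 10 UMIs after thinning, which allows shares of up to 2.10% and 2.17% when 3 cells are taken as the limit, or 2.55% and 2.64% by the Clopper-Pearson bound. Without thinning 19.6% and 14.4% of them did. Nusap1, which bundles spindle microtubules, had no UMI there in either library, against 406 UMIs in FMT_young and 642 in FMT_aged stem and multipotent progenitor-like cells. Mki67, which coats mitotic chromosomes, had 5 and 3 UMIs in cluster 22, against 1137 and 1848.

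Set against cluster 22 in the same library, the summed genes were higher in stem and multipotent progenitor-like cells by 1.81 (1.71 to 1.90) on the log2 scale in FMT_young and 1.94 (1.85 to 2.04) in FMT_aged. All 38 genes were higher in each library, and the counting interval lay above 0 for 37 of them in FMT_young and 38 in FMT_aged. For these counts no share over all genes is given. With at least 100 UMIs over both classes, 32 of 34 genes were higher past 0.32 in FMT_young and 35 of 36 in FMT_aged, where 31.9% and 31.3% of all genes were, but 32 of the 34 and 34 of the 36 had under 100 UMIs in cluster 22, so nothing is read from that count. Hjurp, the chaperone that places the centromeric histone, hardly took part in FMT_young, with 122 CPM in stem and multipotent progenitor-like cells and 108 CPM in cluster 22. In FMT_aged it had 126 and 82.6 CPM. Tubb4b, a beta tubulin that interphase cells also use, differed by 0.31 and 0.26. These are class descriptions within a library, and depth differs too, with medians of 8905.5 and 5638 UMIs in FMT_young and 9174 and 5685 in FMT_aged.

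Individual genes were most often highest in neutrophil progenitor-like cells. Hmgb2, a DNA-bending chromatin protein, was the most abundant of the 38, with 4282 CPM there in FMT_young and 4517 CPM in FMT_aged, and it made up 44.3% and 43.5% of the summed UMIs of that class. Mki67 reached 556 and 574 CPM, and Ube2c, the ubiquitin-conjugating enzyme of the anaphase promoting complex, 371 and 510 CPM. In FMT_young, Ccnb2, Cdc25c, Ube2c, Birc5, Cenpf, Kif20b, Ckap2 and Ckap2l were instead highest in conventional dendritic-like cells. Tmpo, a lamina-associated protein of the nuclear envelope, was highest in monocyte-like cells, with 387 CPM in FMT_young and 396 CPM in FMT_aged. Rangap1 (a nuclear transport activator), Anp32e (a histone chaperone), Tubb4b and Hjurp followed the sum least closely over the 38 class and library points. Their Pearson r of log2(CPM + 1) was 0.506, 0.649, 0.671 and 0.673. Ccnb2 (0.970) and Cdca3 (0.967) followed the sum most closely.

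Outside the 38, the genes most like their sum over the same 38 points were H2afz, Neil3 and Hist1h2ab (r = 0.955 each), Ska1 (0.954), Esco2 and Ncapg (0.953 each), then Asf1b, E2f8, Cdkn3 and Hmmr, down to 0.947. These correlations carry no test, since points of 1 library share its depth and points of 1 class share their cells.

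Within dividing progenitors the genes differed in how far cells rich in Cdc20 stood above cells rich in S phase transcripts. Progenitor cells of cluster 0, GMP-like cells, clusters 7 and 8, and monocyte and neutrophil progenitor-like cells with at least 10000 UMIs (3643 in FMT_young and 3709 in FMT_aged) were thinned to 10000. Cells with 3 or more UMIs of Cdc20, the activator of the anaphase promoting complex (138 and 163 cells), were set against cells without Cdc20 in the top 25% for S phase transcripts (771 and 734 cells). All 37 other genes were higher in the Cdc20-rich cells in both libraries, 18 of them by 2-fold or more in both. The counting interval lay above 0 in both libraries for 32. No share over all genes is given for this comparison, and the mix of classes was not matched between these sets of cells. Nothing is therefore read from these counts. Mean UMIs of the genes other than Cdc20 were 87.4 and 92.5 per Cdc20-rich cell, against 43.8 and 42.2 per S phase-rich cell. Cells low in S phase transcripts and without Cdc20 had 35.8 in FMT_young and 43.1 in FMT_aged.

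Ube2c showed the widest difference, with 471 CPM in Cdc20-rich cells and 32.4 CPM in S phase-rich cells of FMT_young, a log2 ratio of 3.86, and with 582 and 29.3 CPM in FMT_aged, a ratio of 4.31. Cenpf, a kinetochore protein that accumulates in G2, followed at 2.98 and 3.45, then Cdc25c at 2.65 and 3.09, Ccnb2 at 2.95 and 2.76, and Nusap1 at 2.57 and 2.68. At the other end stood genes already abundant in S phase-rich cells. Top2a, the topoisomerase that untangles sister DNA, had 370 and 400 CPM in Cdc20-rich cells of FMT_young and FMT_aged, against 303 and 292 CPM in S phase-rich cells and 101 and 118 CPM in S phase-poor cells. Tmpo differed by 0.03 and 0.19, Hjurp by 0.07 and 0.34, and Aurkb, the kinase of the chromosomal passenger complex, by 0.00 and 0.38. No gene's ratio differed between the libraries by more than 0.72.

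**Figure D3:**
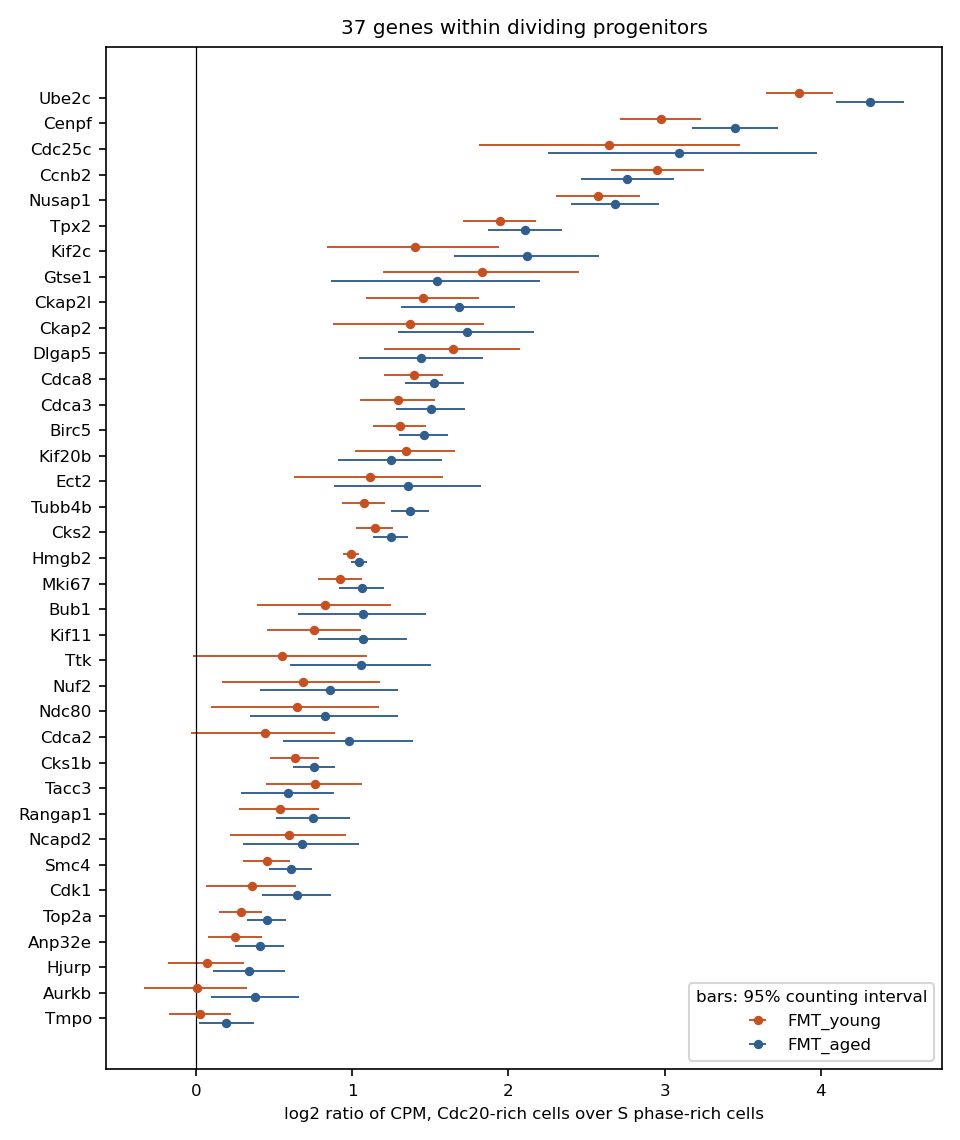
Log2 ratio of CPM in Cdc20-rich over S phase-rich progenitor cells (x axis) for 37 genes (y axis, Cdc20 left out because it chose the cells), with FMT_young in orange, FMT_aged in blue and bars for the 95% counting interval. Ube2c, Cenpf, Cdc25c, Ccnb2 and Nusap1 lie at or above 4-fold (a log2 ratio of 2) in both libraries, while Tmpo, Aurkb and Hjurp lie near 0.

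The 38 genes were far lower in neutrophil-like cells than in neutrophil progenitor-like cells in both groups. Summed levels were 2272 CPM in FMT_young neutrophil-like cells, against 9673 CPM in their progenitors, a log2 ratio of -2.09 (-2.13 to -2.05), and 2036 against 10379 CPM in FMT_aged, a ratio of -2.35 (-2.40 to -2.30). All 38 genes were lower in each library, and the counting interval lay below 0 for all 38 in both. For these counts no share over all genes is given. With 100 or more UMIs over both classes, 47.2% of all genes were lower past 0.32 and 28.5% higher in FMT_young, and 45.0% lower and 29.7% higher in FMT_aged. The 33 of the 38 genes with that many UMIs were all lower past 0.32, but 26 of them in FMT_young and 28 in FMT_aged had under 100 UMIs in neutrophil-like cells, so nothing is read from that count. Ube2c had 19.0 CPM in FMT_young neutrophil-like cells, 19.5-fold below progenitors, and 5.57 CPM in FMT_aged, 91.7-fold below them. Mki67 had 32.5 and 22.3 CPM, 17.1-fold and 25.8-fold below progenitors. Nuf2 and Ndc80, subunits of the complex that grips microtubules, had 5 and 11 UMIs in FMT_young neutrophil-like cells and none in FMT_aged ones, at least 39.4-fold and 33.6-fold below FMT_aged progenitors when 3 counts are taken as the limit.

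Hmgb2, Cks2, Tubb4b and Hjurp were the least reduced. Hmgb2 still had 1487 CPM in FMT_young and 1462 CPM in FMT_aged neutrophil-like cells, 2.88-fold and 3.09-fold below progenitors, and supplied 65.5% and 71.8% of the summed UMIs that remained. Cks2, a small subunit bound to Cdk1, had 180 CPM in FMT_young and 110.0 CPM in FMT_aged, against 425 and 429 CPM in progenitors. Hjurp had 122 and 148 CPM, 1.85-fold and 1.43-fold below progenitors. Neutrophil-like cells with 10 or more UMIs after thinning were 18 of 609 in FMT_young (2.96%) and 8 of 453 in FMT_aged (1.77%), against 34.9% and 28.9% before thinning. Tubb4b, Cks2, Cks1b and Hmgb2 have close paralogs or processed copies, and how reads shared with these were counted is not given in the sources used here.

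**Figure D4:**
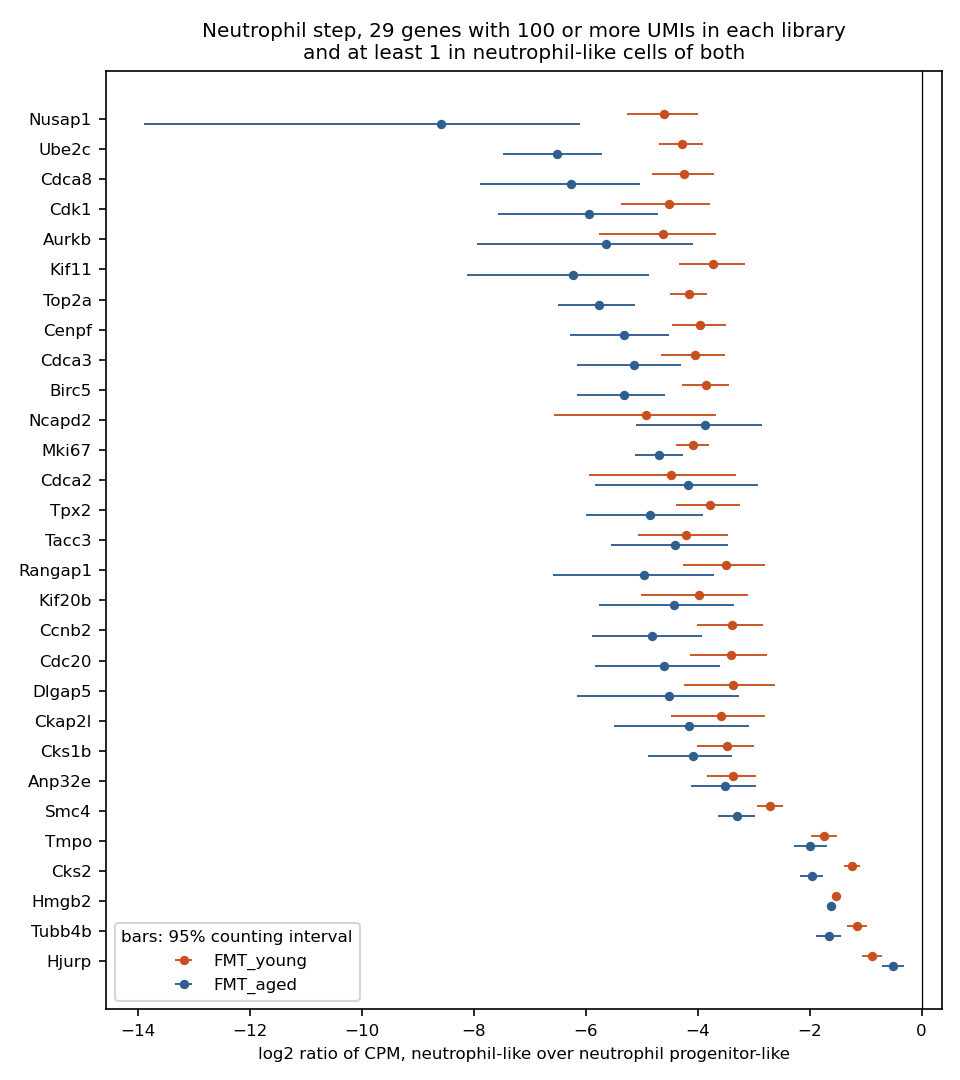
Log2 ratio of CPM in neutrophil-like over neutrophil progenitor-like cells (x axis) for the 29 genes with 100 or more UMIs over both classes in each library and at least 1 UMI in neutrophil-like cells of both (y axis), with FMT_young in orange, FMT_aged in blue and bars for the 95% counting interval. Every gene lies below 0, from Hjurp, Tubb4b, Hmgb2 and Cks2 near the right to Nusap1 and Ube2c at the left.

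Between the monocyte classes the sums lay closer together. Monocyte-like cells, in which few cells had Kit, stood slightly above monocyte progenitor-like cells in the summed level, by 0.25 (0.23 to 0.27) in FMT_young and 0.13 (0.10 to 0.15) in FMT_aged. Without Hmgb2 the order turned in FMT_aged, since the sums were then 3896 CPM in monocyte-like and 3774 CPM in progenitor-like cells of FMT_young, a ratio of 0.05 (0.02 to 0.07), and 4093 and 4193 CPM in FMT_aged, a ratio of -0.03 (-0.06 to -0.01). The median over the 38 genes was -0.02 in FMT_young and -0.09 in FMT_aged. Of 38 genes, 7 were higher and 6 lower past 0.32 in FMT_young, against 30.5% and 33.9% of all genes tested, and 6 were higher and 9 lower in FMT_aged, against 29.9% and 32.8%. Tmpo had 387 CPM in monocyte-like and 211 CPM in progenitor-like cells of FMT_young, and 396 and 246 CPM in FMT_aged. Ccnb2 was higher by 0.74 and 0.67, and Cks1b differed by -0.61 and -0.65. Monocyte-like cells with 10 or more UMIs after thinning were 34.8% in FMT_young and 34.9% in FMT_aged, against 46.8% and 54.4% of monocyte progenitor-like cells. Counted on all their UMIs, 70.9% and 70.4% of monocyte-like cells held 10 or more, against 99.4% and 99.1% of the progenitors.

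The first question between the groups was whether stem and progenitor cells differed in their G2 and M phase transcripts after microbiota transfer from young or aged donors. In the stem and multipotent progenitor-like class the sum was lower in FMT_young by a small amount, -0.11 (-0.14 to -0.09), and 31 of the 38 genes were lower and 7 higher. All genes tested in that class had a median of -0.11 as well, against -0.10 for the 38, so relative to the typical gene the programme did not stand apart. Scaling with edgeR's TMM or DESeq2's size factors brought the sum to -0.01 in either case. No gene was higher past 0.32, against 5.43% of all genes, and 3 of 38 were lower, against 14.8%. These 3 were Nuf2 with 12.6 CPM (88 UMIs) in FMT_young and 18.2 CPM (191 UMIs) in FMT_aged, Cdca2, which recruits a phosphatase to chromatin at mitotic exit, with 19.9 and 27.6 CPM, and Gtse1, a microtubule protein, with 4.87 and 7.35 CPM.

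Other genes of that class lay closer together. Smc4, the ATPase of condensin, had 154 CPM in FMT_young and 186 CPM in FMT_aged, a ratio of -0.27 (-0.38 to -0.16), and Tmpo had 180.0 and 205 CPM, a ratio of -0.18 (-0.29 to -0.08). Cdk1 had 45.1 and 54.5 CPM, while Ccnb2 with 41.8 and 42.6 CPM, Cdc20 with 36.1 and 38 CPM and Ube2c with 119.7 and 114 CPM had log2 ratios of -0.03, -0.07 and 0.07. By role, the Cdk1 module differed by -0.11 (-0.17 to -0.05), the chromosomal passenger genes Birc5, Aurkb and Cdca8 by -0.16, and the anaphase promoting complex arm of Cdc20 and Ube2c by 0.03. Cells with 3 or more UMIs after thinning made up 55.2% in FMT_young and 59.9% in FMT_aged, and 95.5% and 95.4% without thinning, where the direction of the ratio turned. Plasma-like cells, a low class, had 27.7% and 24.0% after thinning. Markers of other types moved with the group in this class, since GMP markers summed to 5006 CPM in FMT_young and 4148 CPM in FMT_aged (10 of 10 higher) and neutrophil markers to 456 and 190 CPM (12 of 12 higher), with 4009 and 4017 CPM of its own 17 markers. Their part in the result was not tested.

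GMP-like cells gave nearly the same total in both libraries, while single genes differed beyond counting error. Their sum differed by -0.004 (-0.015 to 0.0069), with 20 of 38 genes higher and 18 lower, and 2 were higher and none lower past 0.32, against 6.98% and 4.15% of all genes. When the cells or classes were rebuilt in 8 other ways, none was higher past 0.32 in 7 of them and 1 in the other, and 1 or 2 were lower in 3. No share over all genes is given for these rebuilt classes. By role, kinesins differed by 0.13 (0.06 to 0.21), kinetochore genes by 0.13 (0.07 to 0.19) and the Cdk1 module by -0.10 (-0.12 to -0.07). The arm of Cdc20 and Ube2c (0.0083, -0.05 to 0.06), spindle assembly genes (0.02, -0.02 to 0.05) and chromosome structure genes (0.01, -0.0020 to 0.03) had intervals that spanned 0. By their interval bound, the 4 genes farthest above 0 began with Nusap1, which had 46.5 CPM in FMT_young and 35.8 CPM in FMT_aged, a ratio of 0.38 (0.26 to 0.50). The others were Ckap2l, a spindle pole protein, with 29.8 and 23.7 CPM (0.33, 0.18 to 0.48), Cenpf with 57.9 and 47.5 CPM (0.29, 0.18 to 0.39) and Top2a with 213 and 183 CPM (0.22, 0.17 to 0.28). The 4 farthest below 0 were Cdc20 with 46.1 and 54.8 CPM (-0.25, -0.36 to -0.15), Cdk1 with 71.3 and 81.4 CPM (-0.19, -0.28 to -0.10), Cks1b with 219 and 242 CPM (-0.14, -0.19 to -0.09) and Tubb4b with 217 and 231 CPM (-0.09, -0.14 to -0.04). The depth of this class differed, with median UMIs of 5440 in FMT_young and 21003 in FMT_aged, and cluster 10 within it held 664 FMT_young and 47 FMT_aged cells. In cluster 1 alone, with 973 and 868 cells, the sums were 4633 and 4674 CPM.

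Cdc20 and Cdk1 were lower in FMT_young in cluster 0 and in monocyte and neutrophil progenitor-like cells, described next. Cluster 8, also taken as dividing progenitors above, went the other way for the arm of Cdc20 and Ube2c. That arm summed to 168 CPM in FMT_young and 128 CPM in FMT_aged there (0.39, 0.29 to 0.49), while the Cdk1 module differed by 0.0018. In cluster 7 the arm differed by -0.11 (-0.25 to 0.03) and the module by -0.10 (-0.16 to -0.03). In cluster 0, early progenitors with Cd34 among their leading genes, 5 of 38 genes were lower past 0.32, against 4.95% of all genes, and none higher, against 6.73%. They were Cdc20 with 42.7 CPM in FMT_young and 60.6 CPM in FMT_aged, Ube2c with 111 and 156 CPM, a ratio of -0.48 (-0.55 to -0.41), Cdk1 with 64.1 and 82.9 CPM, the microtubule depolymerase Kif2c and Gtse1. Top2a went the other way with 249 and 233 CPM (0.09, 0.04 to 0.14). The whole sum of cluster 0 differed by -0.14 (-0.15 to -0.13), against a median of -0.04 over all its genes.

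Monocyte progenitor-like cells had 37 of 38 genes lower in FMT_young, and Gtse1 with 10.3 and 10.0 CPM was the exception. None was higher past 0.32, against 6.72% of all genes, and 5 were lower, against 9.05%, namely Cdk1 with 77.4 CPM in FMT_young and 104 CPM in FMT_aged, a ratio of -0.42 (-0.52 to -0.33), Ube2c with 151 and 194 CPM, Cdc20 at -0.35, and Ttk, a checkpoint kinase, and Ndc80 at -0.34 each. The sum differed by -0.19 (-0.20 to -0.18). It was 0.196 with a mitochondrial limit of 20%, where 8 genes were higher past 0.32, and 0.0105 at a finer clustering. It was -0.0015 with doublets kept, -0.0054 with a mitochondrial limit of 5%, -0.0067 with cell cycle genes kept in the clustering and -0.0186 by marker score, and no gene passed 0.32 in these 4. For the counts in these other settings no share over all genes is given. In this class 16 of 17 stem markers were higher, 605 CPM in FMT_young and 318 CPM in FMT_aged, and 10 of 11 monocyte markers were lower, 5247 and 5943 CPM. Their part in the result was not tested.

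In neutrophil progenitor-like cells, 7 of 36 genes with enough UMIs were lower in FMT_young past 0.32, against 9.36% of all genes, and none was higher, against 12.1%. Ckap2, a spindle microtubule protein, had 18.6 CPM in FMT_young and 39.7 CPM in FMT_aged, a ratio of -1.10 (-1.57 to -0.63) on 61 and 113 UMIs. Ccnb2 had 91.6 and 131 CPM, Ube2c 371 and 510 CPM, and Cdk1 111 and 142 CPM, and Cdc20, Ttk and Kif2c were the other three. The arm of Cdc20 and Ube2c summed to 444 CPM in FMT_young and 601 CPM in FMT_aged (-0.44, -0.54 to -0.34), while chromosome structure genes differed by -0.06. The sum of all 38 differed by -0.10 (-0.12 to -0.08). It differed by -0.47 with a minimum of 2000 UMIs and -0.45 with doublets kept, where 23 of 37 and 22 of 38 genes were lower past 0.32. The class was then another set of cells, 863 in FMT_young and 299 in FMT_aged, or 1056 and 378, against 248 and 248. Its median over all genes moved to 0.19 and 0.15, from -0.0043. The count lower past 0.32 was 12 of 36 with cell cycle genes kept in the clustering and with each library clustered on its own. No share over all genes is given for these settings, so nothing is read from these counts. S phase genes ran the other way in the same cells, with a summed ratio of 0.21, and 11 of 36 were higher past 0.32 and 1 lower. GMP markers summed to 6438 CPM in FMT_young and 3275 CPM in FMT_aged in this class (9 of 10 higher), and their part in the result was not tested.

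The sums of clusters 7, 8 and 15 differed little, by -0.01, 0.07 and 0.01, and that of monocyte-like cells by -0.06. In these classes 5, 3, none and none of the tested genes were higher past 0.32, against 7.33%, 4.66%, 7.71% and 8.48% of all genes, and 4, none, 2 and 3 were lower, against 12.4%, 8.41%, 8.27% and 10.4%. By their interval bound, the genes farthest from 0 were Cenpf with 65.8 CPM in FMT_young and 49.6 CPM in FMT_aged and Ect2, which starts cytokinesis, with 12.0 and 19.1 CPM in cluster 7. They were Nusap1 with 42.9 and 27.0 CPM in cluster 8, Mki67 with 337 and 285 CPM and Cdc20 with 48.7 and 61.9 CPM in cluster 15, and Birc5, the survivin subunit of the passenger complex, with 194 and 232 CPM in monocyte-like cells. The 3 lower past 0.32 in monocyte-like cells were Kif2c with 16.4 and 24.3 CPM (-0.57, -1.08 to -0.05), Ect2 with 15.9 and 20.3 CPM (-0.35, -0.89 to 0.19) and Cdca2 with 17.9 and 22.4 CPM (-0.33, -0.84 to 0.18). Cdc20 over all kept cells had 41.5 CPM in FMT_young and 51.1 CPM in FMT_aged, a ratio of -0.30 (-0.35 to -0.25), while Mki67 had 199 and 182 CPM, a ratio of 0.13 (0.10 to 0.15). No gene of the 38 passed 0.32 over all kept cells, where 7.61% of all genes were higher and 10.6% lower, and the sum differed by -0.04 there but by 0.0362 with TMM and 0.0279 with DESeq2's size factors.

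**Figure D5:**
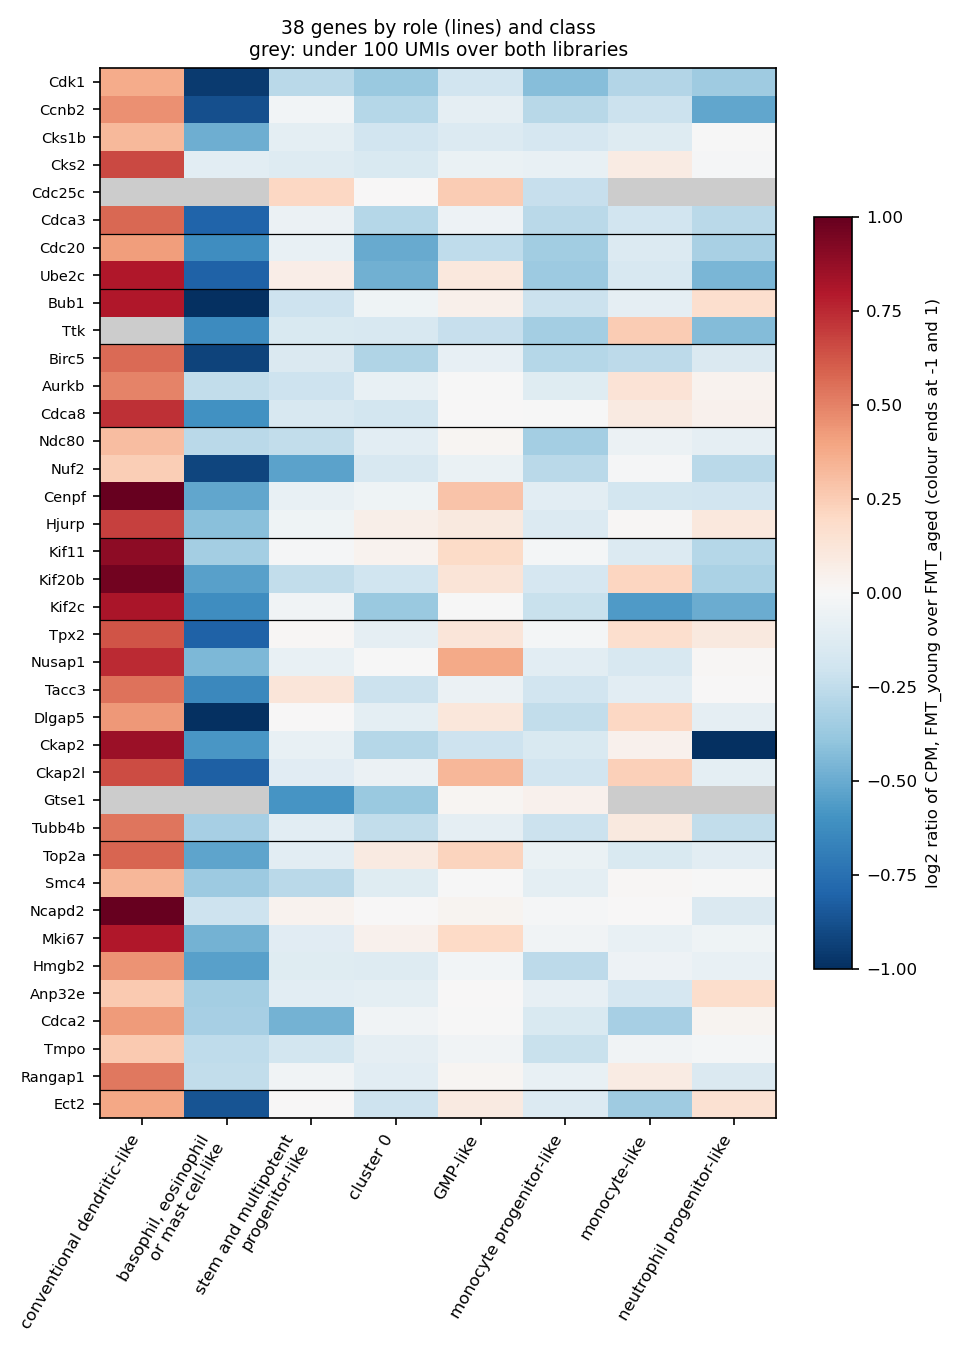
Log2 ratio of CPM, FMT_young over FMT_aged (colour, ends at -1 and 1), for the 38 genes (rows, black lines between roles) in 8 classes (columns), with genes under 100 UMIs over both libraries in grey. Conventional dendritic-like cells are red in every tested row, basophil, eosinophil or mast cell-like cells are blue in every tested row, and the progenitor columns are mostly pale, with darker blue at Cdk1, Cdc20 and Ube2c in cluster 0, monocyte progenitor-like and neutrophil progenitor-like cells, where these 3 genes lie past 0.32 in each. Clusters 7 and 8 are not shown.

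Conventional dendritic-like cells, which present antigen and here included precursors with Kit, were the class in which the programme was higher in FMT_young throughout. The sum was 7001 CPM (6900 to 7104) in 212 FMT_young cells and 4828 CPM (4754 to 4902) in 294 FMT_aged cells, a ratio of 0.54 (0.51 to 0.57). All 38 genes were higher, with the counting interval above 0 for 31, a count without a share over all genes. All genes tested in this class had a median of 0.04. Of the 35 with enough UMIs, 31 were higher past 0.32, where 15.7% of all genes were higher and 8.05% lower. Of the 35, 9 had under 100 UMIs in FMT_aged and passed only with FMT_young added, so nothing is read from that count. With other settings the count was 13 of 36 with doublets kept, 20 at a finer clustering, 21 of 33 by marker score and 24 with a minimum of 2000 UMIs. No share over all genes is given for these settings, so nothing is read from these counts either. Cenpf had 217 CPM in FMT_young and 108 CPM in FMT_aged, a ratio of 1.00 (0.81 to 1.19), Mki67 396 and 228 CPM, and Ube2c 437 and 251 CPM. Kif11, the kinesin that pushes spindle poles apart, had 106 and 57.0 CPM, and Ncapd2, a condensin subunit, 53.8 and 26.7 CPM. Hmgb2 with 2033 and 1493 CPM differed less (0.45), and Nuf2 (0.25), Anp32e and Tmpo (0.26 each) least.

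By role, kinesins differed by 0.91, kinetochore genes by 0.79 and the arm of Cdc20 and Ube2c by 0.74 in these dendritic-like cells, and chromosome structure genes by 0.46. Both the share of strongly expressing cells and their content were higher. Cells with 10 or more UMIs after thinning were 75 of 209 in FMT_young (35.9%, 29.4 to 42.8) and 77 of 294 in FMT_aged (26.2%, 21.3 to 31.6), or 67.0% and 50.3% without thinning, and these cells averaged 27.5 and 22.6 UMIs. The ratio lay between 0.25, with doublets kept, and 0.57, without Hmgb2, over all alternatives tried. All 11 markers of conventional dendritic cells were lower in FMT_young, summing to 36435 CPM against 48253 CPM in FMT_aged, and neutrophil markers summed to 935 and 1803 CPM. Their part in the result was not tested, and the range of mature to precursor cells in the class cannot be told apart from the level in each.

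Basophil, eosinophil or mast cell-like cells showed the opposite. The sum was 4544 CPM (4466 to 4623) in 295 FMT_young cells and 6395 CPM (6327 to 6463) in 480 FMT_aged cells, a ratio of -0.49 (-0.52 to -0.46). All 38 genes were lower in FMT_young, with the counting interval below 0 for 32, a count without a share over all genes. All genes tested in this class had a median of -0.09. Of the 36 with enough UMIs, 30 were lower past 0.32, where 19.0% of all genes were lower and 9.47% higher. Of the 36, 11 had under 100 UMIs in FMT_young and passed only through FMT_aged, so nothing is read from that count. The count was 29 to 34 in the 8 alternatives that rebuilt cells or classes, for which no share over all genes is given. Birc5 had 89.5 CPM in FMT_young and 170 CPM in FMT_aged, a ratio of -0.92 (-1.13 to -0.72), Cdk1 48.1 and 93.6 CPM, and Ccnb2 49.1 and 90.2 CPM. Bub1, a checkpoint kinase, and Dlgap5, a spindle protein stabilised by Aurora A, lay at -1.10 each. Hmgb2 had 1334 and 1942 CPM, and Cks2 with 416 and 447 CPM differed least (-0.10).

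Strongly expressing cells were 75 of 263 in FMT_young (28.5%, 23.1 to 34.4) and 179 of 439 in FMT_aged (40.8%, 36.1 to 45.5), and 74.6% and 79.8% without thinning. The difference lay in 1 of the 3 clusters of this class. Cluster 14, led by the basophil genes Prss34, Fcer1a and Mcpt8, had 4672 CPM in 205 FMT_young cells and 7117 CPM in 327 FMT_aged cells. Cluster 27 had 5093 and 5006 CPM, and cluster 28, led by the eosinophil genes Epx, Prg3 and Prg2, 4019 and 3537 CPM. Markers of the class summed to 17999 CPM in FMT_young and 18121 CPM in FMT_aged, and the ratio ran from -0.67 to -0.43 over the alternatives tried. Erythroid markers summed to 507 and 265 CPM and GMP markers to 12844 and 14361 CPM, whose part in the result was not tested.

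Mature B-like cells had the widest gap, with 1186 CPM (1125 to 1250) in FMT_young and 3810 CPM (3735 to 3885) in FMT_aged, a ratio of -1.68 (-1.76 to -1.60). All 38 genes were lower, with the counting interval below 0 for 36, a count without a share over all genes. The 24 with 100 or more UMIs were all lower past 0.32, where 29.4% of all genes were, but 19 of them had under 100 UMIs in FMT_young, so nothing is read from that count. With doublets kept, 6 of 21 were lower past 0.32 and 5 higher, and by marker score 2 of 9 were lower. No share over all genes is given for these settings. Mki67 had 21.8 and 240.4 CPM, and Ccnb2 had 3 UMIs in FMT_young and 148 in FMT_aged, a ratio of -4.49 with a counting interval of -6.78 to -2.92. Much of this sat in few cells. In cluster 19, 39 FMT_aged cells and 2 FMT_young cells held Vpreb1 or Igll1, the surrogate light chain genes of dividing B cell precursors, and the FMT_aged cells among them had 14615 CPM. Without such cells the class had 1175 CPM in 320 FMT_young cells and 1756 CPM in 474 FMT_aged cells, a ratio of -0.58. It was -0.09 with doublets kept, -1.02 with a mitochondrial limit of 5% and between -0.34 and -0.20 with a minimum of 2000 UMIs, a finer clustering, separate clustering or naming by marker score.

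Plasmacytoid dendritic-like cells, of which FMT_aged had 51, showed 2862 CPM in FMT_young and 4052 CPM in FMT_aged, a ratio of -0.50 (-0.60 to -0.40) that ran from -0.45 to -0.13 over the alternatives tried. Of the 38 genes 29 were lower and 9 higher, with the interval below 0 for 9 and above 0 for none. Of the 10 with enough UMIs, 6 were lower past 0.32, where 15.8% of all genes were, and Mki67 with 83 and 73 UMIs had 101 and 246 CPM. Neutrophil-like cells differed by 0.16 (0.10 to 0.21) in the sum and by 0.45 without Hmgb2, and 32 of the 38 genes were higher. Of the 7 with enough UMIs, 3 were higher past 0.32, where 10.6% of all genes were. Of the 7, 2 had under 100 UMIs in FMT_aged, so nothing is read from that count. Cks2 had 179.8 CPM in FMT_young and 110.0 CPM in FMT_aged there, a ratio of 0.71 (0.49 to 0.93), and Hjurp 122 and 148 CPM (-0.27, -0.49 to -0.05). The neutrophil-like sum turned to -0.150, -0.268 and -0.255 with a mitochondrial limit of 20%, a finer clustering and naming by marker score. Macrophage-like cells had 1826 CPM in FMT_young and 1380 CPM in FMT_aged on 4 genes with enough UMIs, with neutrophil markers at 20174 and 645 CPM in the same class, whose part in the result was not tested.

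T-like, NK or innate lymphoid-like and plasma-like cells were low in both libraries. T-like cells had 1637 CPM of the 38 genes in FMT_young and 1468 CPM in FMT_aged, and in NK or innate lymphoid-like cells Top2a had 27.0 and 16.5 CPM. Plasma-like cells had Tubb4b at 240.2 and 143 CPM and Birc5 at 5.96 and 17.9 CPM, and their 13 genes with enough UMIs gave 1 higher and 7 lower past 0.32, against 11.3% and 20.6% of all genes. Clusters 9 and 20 of this class belonged almost wholly to 1 library each, with 911 FMT_young and 3 FMT_aged cells in the first and 4 and 319 in the other.

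Other genes of the cycle, listed apart from the 38, gave the surroundings of these values. In the stem and multipotent progenitor-like class none of 34 other G2 and M genes was higher and 2 were lower past 0.32, while 1 of 42 S phase genes was higher and 11 were lower, where 5.43% of all genes were higher and 14.8% lower. Among the 11 was Pcna, the replication clamp, with 169 CPM in FMT_young and 232 CPM in FMT_aged. In conventional dendritic-like cells 22 of 31 other G2 and M genes were higher past 0.32 and none lower, against 15.7% and 8.05% of all genes. Among them Prc1, the protein that bundles the central spindle, had 104 CPM in FMT_young and 46.7 CPM in FMT_aged. Regulators of the programme were listed separately, and of 14 tested there 3 were higher and 1 lower past 0.32. The activator Foxm1, a regulator, had 32.6 and 21.8 CPM. Basophil, eosinophil or mast cell-like cells had none of 32 higher and 24 lower past 0.32, against 9.47% and 19.0% of all genes. Among them were the centromeric histone Cenpa at 90.9 and 161 CPM and the kinase Plk1 at 18.5 and 38.4 CPM. Cluster 0 had none of 34 higher and 3 lower past 0.32, against 6.73% and 4.95% of all genes, with Ccnb1 at 27.7 and 39.9 CPM and Plk1 at 18.6 and 25.6 CPM. Of the 18 regulators there, 1 was higher and 1 lower past 0.32. These were Cdc25a with 79.1 CPM in FMT_young and 59.8 CPM in FMT_aged, and Foxm1 with 11.8 and 15.9 CPM.

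Cdkn1a, the p21 inhibitor of cyclin-dependent kinases, was chosen from a list of 7 such inhibitors. It was higher in FMT_young in the classes given here, whichever way the 38 genes lay. It had 100.7 CPM in FMT_young and 44.0 CPM in FMT_aged stem and multipotent progenitor-like cells (1.19, 1.02 to 1.37), 60.2 and 26.3 CPM in cluster 0, 73.5 and 31.1 CPM in monocyte progenitor-like cells and 26.2 and 8.13 CPM in GMP-like cells. Its ratio was 0.87 in conventional dendritic-like cells, where the 38 genes were higher. It was 0.83 in basophil, eosinophil or mast cell-like cells, where the 38 genes were lower. The listed inhibitors did not all follow Cdkn1a. Of 4 with enough UMIs, 1 was higher and 3 lower in monocyte progenitor-like cells, where Cdkn2d lay at -0.39. In GMP-like cells 2 were higher and 2 lower, and all 4 were higher in conventional dendritic-like cells. Of 5 in stem and multipotent progenitor-like cells, 3 were higher and 2 lower, with Cdkn2c at -0.45.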

How the data were processed

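The deposited matrices hold counts, raw UMI counts per gene and barcode for 31053 genes and 6794880 barcodes in each library, made with Cell Ranger 3.1.0 per the file headers and with mm10 per the submitters' processing notes. The other deposited files (unit other) name the genes and barcodes only. The 38 genes, the other gene lists and the comparisons were chosen with earlier results of these data known.

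Barcodes with at least 1000 UMIs (13922 in FMT_young and 14000 in FMT_aged), 500 genes and at most 10% mitochondrial UMIs were called as cells (11932 and 11351), and the highest-scoring 0.8% per 1000 cells by a reimplemented Scrublet score (30 components, 2 simulated doublets per cell) were removed (1139 and 1031). Cells of both libraries were clustered together, without batch correction, on 2000 variable genes excluding cell cycle and histone genes (40 components, 20 neighbours, Leiden resolution 1). A cluster was named where at least 3 markers of a cell type were present in 10% of its cells and 1.5 times higher than elsewhere, and where its 10 leading genes did not favour another type. Clusters with a far lower median of UMIs than all cells together also needed a marker of their own type among these genes. Clusters of monocytes and neutrophils with Kit in 20% of cells were called progenitors. These naming thresholds were set after the clusters were seen, and the names are rebuilt ones, not a sort gate.

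UMIs of a class were summed per library and given as CPM outside immunoglobulin genes, with exact Poisson intervals, exact conditional binomial intervals for ratios and Clopper-Pearson intervals for shares, all at 95%. Genes with at least 100 UMIs over both libraries counted as tested, with a log2 ratio past 0.32 as the threshold of size. Where a library had no UMI, 0.5 was added before the ratio, and lower limits used 3 counts. Shares used cells thinned to 2000 UMIs outside immunoglobulin genes, and 875 and 592 shallower cells were left out. All 38 genes were accounted for by role. In the stem and multipotent progenitor-like and GMP-like classes the 4 genes higher and the 4 lower whose nearer interval bound lay farthest from 0 were given in full, in other classes 1 of each. Genes most like the sum were ranked by Pearson's r of log2(CPM + 1). Other genes named were chosen after their values were seen.

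The script was tested on simulated counts with known fold changes. Alternatives changed doublet removal, cell filters, clustering, naming, scaling, free RNA and thinning. Software was Python 3.11.15, numpy 2.4.6, scipy 1.17.1, pandas 2.3.3, scikit-learn 1.9.0, igraph 0.11.9, leidenalg 0.10.2, matplotlib 3.10.9, R 4.3.3, edgeR 4.0.16 and DESeq2 1.42.0, the last pair for scaling factors only. Gene positions came from GENCODE vM21 (GRCm38) and promoters from RefSeq (GRCm38.p6).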

Additional observations from a re-analysis of the deposited data

Results flagged for a closer look

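In 5 classes the summed 38 genes differed between FMT_young and FMT_aged past 0.32 on the log2 scale in either direction. The difference between these classes was not tested, since each group is 1 library. The log2 ratio of FMT_young over FMT_aged was 0.536 in conventional dendritic-like cells and 0.404 in macrophage-like cells, while it was -0.493 in basophil, eosinophil or mast cell-like cells, -0.502 in plasmacytoid dendritic-like cells and -1.68 in mature B-like cells. All 38 genes lay above 0 in the first of these classes, and all 38 lay below 0 in the cells with basophil, eosinophil or mast cell markers. Only 4 genes had enough UMIs in the macrophage-like class, where neutrophil markers also differed between the libraries. In mature B-like cells without Vpreb1 or Igll1 the sums were 1175 CPM in FMT_young and 1756 CPM in FMT_aged. With doublets kept the mature B-like ratio was -0.09.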

How the results depend on the processing

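The stem and multipotent progenitor-like sum kept its direction in 16 of 16 alternatives (-0.268 to -0.0115), with -0.0498 at a minimum of 2000 UMIs, -0.137 at a mitochondrial limit of 20%, -0.0841 at Leiden resolution 2, -0.218 with each library clustered on its own, -0.268 by marker score, -0.0134 with TMM, -0.0115 with DESeq2's size factors and -0.151 with cluster 22 added. Genes lower past 0.32, 3 as reported, were 0 with at least 2000 UMIs, 1 at resolution 2, 11 with separate clustering, 14 by marker score, 5 as a mean over cells and 1 at 1.5-fold. No share over all genes is given for these alternatives, so nothing is read from their counts. The ratio of shares of cells with 3 or more UMIs turned to 0.00302 with doublets kept and 0.00164 without thinning, and was -0.00947 in cells chosen by stem cell transcripts, -0.0205 for 2 or more UMIs and -0.297 for 10 or more.

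The GMP-like sum was on either side of 0: -0.0671 with doublets kept, -0.0712 with at least 2000 UMIs, -0.0645 and -0.0387 at mitochondrial limits of 5% and 20%, 0.0176 with cell cycle genes kept in the clustering, -0.0588 at resolution 2, -0.0404 with separate clustering, -0.0228 by marker score, -0.0251 over all UMIs, 0.0413 with TMM, 0.0376 with DESeq2's size factors, 0.0265 with free RNA subtracted, 0.0116 as a mean over cells and 0.00712 without Hmgb2. Over all kept cells it was -0.0576, -0.0544, -0.0553, -0.0962, -0.0195 and -0.0598 with doublets kept, at least 2000 UMIs, a limit of 5%, all UMIs, a mean over cells and no Hmgb2, and turned to 0.0362 with TMM and 0.0279 with DESeq2's size factors. Monocyte progenitor-like cells turned to 0.196 at a limit of 20% and 0.0105 at resolution 2, and lay near 0 at -0.0015, -0.0054, -0.0067 and -0.0186 with doublets kept, a limit of 5%, cell cycle genes kept and marker score. Neutrophil-like cells turned to -0.150, -0.268 and -0.255 at a limit of 20%, resolution 2 and by marker score. The cause was not tested.

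Alternatives without Hmgb2, with cluster 22, with 10 or more UMIs, and those of the other classes were added after seeing the data. Alternatives that redefine classes or subtract free RNA do not apply to all kept cells, and a limit of 20% gave no value for neutrophil progenitor-like and plasmacytoid dendritic-like cells. No paired analysis was possible because each group is 1 library. Depth limits genes under 100 UMIs in a class.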

Other observations

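Cells left out of the comparisons also held these transcripts. The 1139 FMT_young and 1031 FMT_aged barcodes removed as doublets had 4405 and 4772 CPM of the 38 genes, and the 1941 and 2621 barcodes over the mitochondrial limit had 4083 and 3744 CPM. Cells chosen by stem cell transcripts alone, 1155 in FMT_young and 1359 in FMT_aged, had 4219 and 4546 CPM.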
